A study of Mus musculus with 6 samples.

Results

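The cadherins and protocadherins are calcium-dependent adhesion proteins of the cell surface, and the genes described here were those whose symbol is Cdh followed by a number or begins with Pcdh. With 1 probe set per gene, the one with the highest mean over 6 arrays among those that name a single gene, 57 of the 19938 genes on the array fitted this rule. They comprised 23 numbered cadherins, 12 non-clustered protocadherins and 22 clustered protocadherins, all 22 of the beta cluster. The arrays were made from N2A cells, a mouse neuroblastoma line also called neuro 2A, after transient transfection with 1.5 µg of a vector. RNA was extracted up to 3 days later, and the study's methods give a range and no single day for these arrays. The 3 control arrays came from cells given a non-targeting vector and the 3 knockdown arrays from cells that received an shRNA vector against Pax6, a paired-box and homeobox transcription factor that patterns the developing brain and eye. Per the study's methods the hairpin was driven by a U6 promoter, and no step that keeps only transfected cells was described for these samples, so both groups could hold untransfected cells. The question for these genes was which adhesion molecules differ between N2A cells with reduced and with unreduced Pax6.

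Classical cadherins bind the same cadherin on the neighbouring cell, and their cytoplasmic tails are tied through catenins to actin. Type I members hold strong junctions in epithelia, muscle and neural tissue, and type II members often mark particular groups of neurons. Protocadherins lack the catenin-binding tail. The non-clustered ones act in axon growth, synapses and sensory hair cells, while the clustered ones are transcribed from alternative promoters in a combination that differs from neuron to neuron and gives each cell a surface identity.

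Values are the deposited log2 summaries, and every difference, in log2 units, is the knockdown mean minus the control mean, with n = 3 arrays per group and the standard error (SE) from limma. The replicates are described as biological ones. The p-values of the main fit rest on the spread of arrays within a group, with limma drawing each gene's variance towards that of all tested genes. Replicate numbers were left out of the main fit and enter an alternative one described below. A gene was tested where it lay above the median of its array on at least 3 of the 6 arrays, those medians lying between 7.49 and 7.59. A gene is said to have risen or fallen where its limma adjusted p passed a false discovery rate (FDR) of 10%. Pax6 stood at 8.79, 8.82 and 8.81 on the control arrays against 8.48, 8.30 and 8.50 on the knockdown arrays, a fall of 0.38 (SE 0.071, limma adjusted p = 0.0382), and this call was lost when control replicate 1, 2 or 3 or knockdown replicate 3 was left out. Of 9 measured markers of sympathetic neuroblastoma cells 8 were tested and Nefm lay below the array median, and their summed linear level ran from 26627 to 27969 in the control arrays and from 25992 to 27312 in the knockdown arrays. Within that sum Dbh, the enzyme gene of noradrenaline synthesis, read 10.48, 10.39 and 10.26 on the control arrays against 9.34, 9.20 and 9.34 on the knockdown arrays and fell by 1.08 (SE 0.077, limma adjusted p = 0.00163), and the other 7 tested markers did not pass. Gata3, a sympathetic lineage factor, was among these, at a difference of -0.21 (SE 0.070, limma adjusted p = 0.150) without overlap, and it passed with the replicate block described below (0.0703). Of the others that did not pass, Th, Hand2 and Mycn differed by -0.22, -0.07 and -0.05, and Tubb3, Phox2a and Stmn2 by 0.12, 0.05 and 0.03. Among these, the groups did not overlap for Hand2, lower in the knockdown, and Tubb3, higher. The part of these marker differences in the results that follow was not tested. The sums of the Schwann cell, fibroblast, endothelial, epithelial and leukocyte markers overlapped between the groups as well, and 0 of the 3 leukocyte markers were tested. Within these sums the fibroblast marker Dcn, untested, was lower in every knockdown array, by a difference of -0.33, and the other markers overlapped between groups. In RNA from whole cultures, fewer cells that express a gene and less RNA per cell cannot be told apart.

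Most of these genes lay low on the arrays. Of the 57, 14 were tested, 10 lay above the median on all 6 arrays and 41 on none. The tested genes were 6 numbered cadherins, 4 non-clustered protocadherins and 4 beta protocadherins. By limma 2 of the 14 tested members changed at 10% FDR, against 6.67% of all 11424 tested genes. Pcdh15 fell, where 3.88% of all tested genes fell, and Cdh24 rose, where 2.79% rose. With 14 members tested, these counts do not set the family apart from other genes. Among the other 12 tested members, 6 had an unadjusted p under 0.05 and did not pass.

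**Figure D1:**
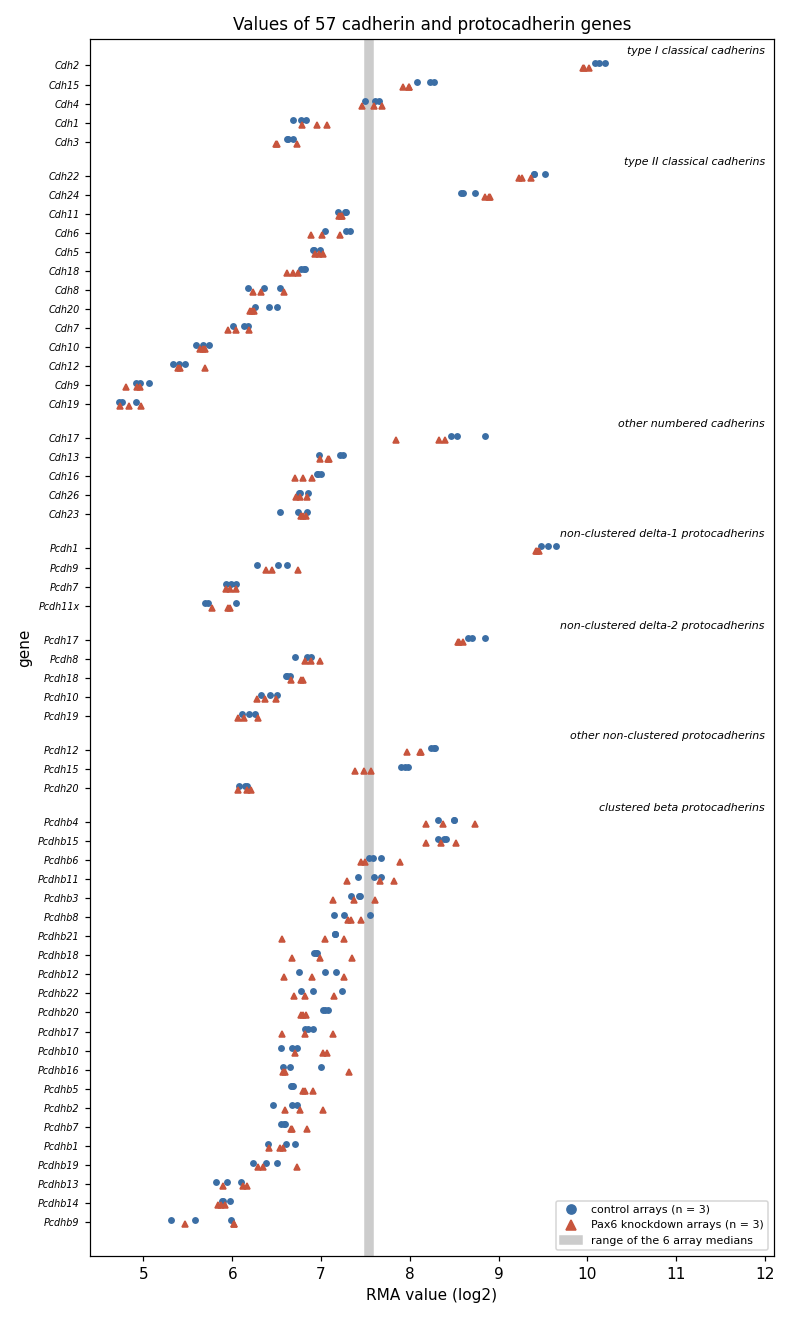
Deposited log2 values (horizontal axis) of the 57 genes (vertical axis, grouped by class) on the 3 control arrays (circles) and 3 Pax6 knockdown arrays (triangles), with the range of the 6 array medians shaded. Within a class genes are ordered by mean only for layout, since values of different probe sets cannot be compared as levels, and 41 of the 57 genes lie below the median of every array.

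The groups separated more often than they passed the test. The control and knockdown arrays did not overlap for 9 of the 14 tested members, against 25.6% of all tested genes. In 8 of these 9 the knockdown arrays lay wholly below the control arrays, a pattern seen in 11.7% of all tested genes. Of the 14, 11 had a knockdown mean below the control mean, and the median difference was -0.14, whereas over all 11424 tested genes it was 0.02. Across all 57 members, tested or not, the median difference was -0.01. By separation of the groups, 12 of all 57 lay wholly lower in the knockdown arrays, against 7.91% of all 19938 genes, and 4 lay wholly higher, against 9.23%. Because a gene that was high in only 1 group, control or knockdown, could pass the low-value filter, the 14 are not a neutral sample of the 57. Of the 8 wholly lower tested members, Pcdh15 lay above the median in the controls alone, and the others did so on every array.

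**Figure D2:**
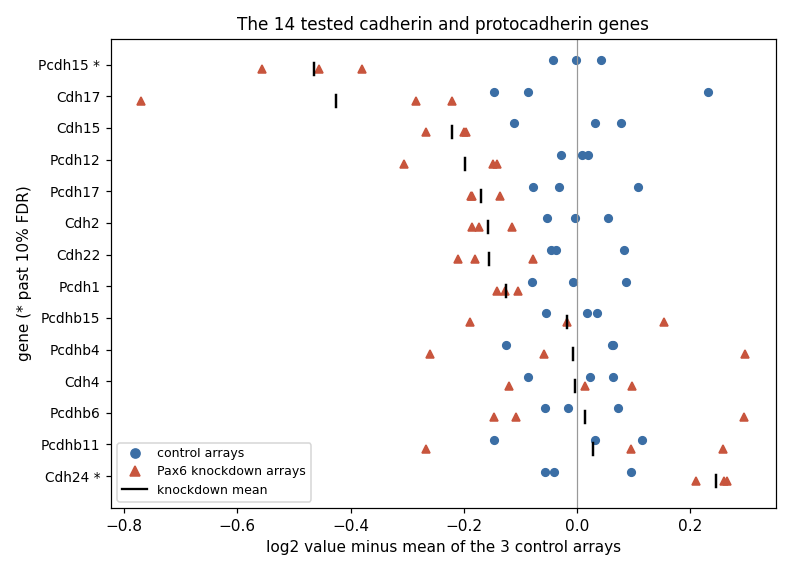
Deviation of each array from the control mean in log2 units (horizontal axis) for the 14 tested genes (vertical axis), with control arrays as circles, knockdown arrays as triangles and the knockdown mean as a bar. Pcdh15 and Cdh24, starred, passed 10% FDR, and the 4 beta protocadherins show wide knockdown spreads around 0.

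Pcdh15 encodes protocadherin-15, which forms the tip links of inner ear hair cells together with the cadherin encoded by Cdh23. It read 7.90, 7.99 and 7.94 on the control arrays against 7.56, 7.38 and 7.49 on the knockdown arrays, so the groups did not overlap. Pcdh15 fell by 0.46 (SE 0.067, limma adjusted p = 0.0193), with a 95% confidence interval of -0.62 to -0.31. In linear terms its signal fell by 27.5%. It exceeded the array median on all 3 control arrays and on 0 of the 3 knockdown arrays, so it entered the test through the controls. Without any low-value filter it still passed, at an adjusted p of 0.0480 by limma. Its tip-link partner Cdh23 lay below the median on every array, at 6.85, 6.53 and 6.74 against 6.80, 6.83 and 6.77.

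A second probe set naming Pcdh15 did not show the fall. It read 7.36, 7.16 and 7.36 on the control arrays against 7.21, 7.31 and 7.32 on the knockdown arrays, a difference of -0.01. The groups overlapped there, and all 6 values lay below the array medians. With the mean of both probe sets in place of the higher, the difference was -0.24 (SE 0.057, limma adjusted p = 0.0698), which still passed. Which exons each probe set covers was not given in the sources used here.

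Cdh24, a type II classical cadherin that binds catenins, was the member that rose. It stood at 8.73, 8.58 and 8.60 on the control arrays against 8.90, 8.85 and 8.90 on the knockdown arrays. The lowest knockdown array lay above the highest control array. Cdh24 rose by 0.25 (SE 0.065, 95% confidence interval 0.10 to 0.39, limma adjusted p = 0.0909), or 18.5% in linear terms. Its second probe set read 8.03, 7.95 and 8.11 against 8.13, 8.19 and 7.89, with overlapping groups and a difference of 0.04. With the mean of both probe sets the difference was 0.14 and did not pass (SE 0.066, limma adjusted p = 0.295). The call also failed without knockdown replicate 1 or 3 or any control replicate (limma adjusted p from 0.120 to 0.319), and the Pcdh15 call failed without control replicate 2 (0.123) or knockdown replicate 3 (0.116).

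**Figure D3:**
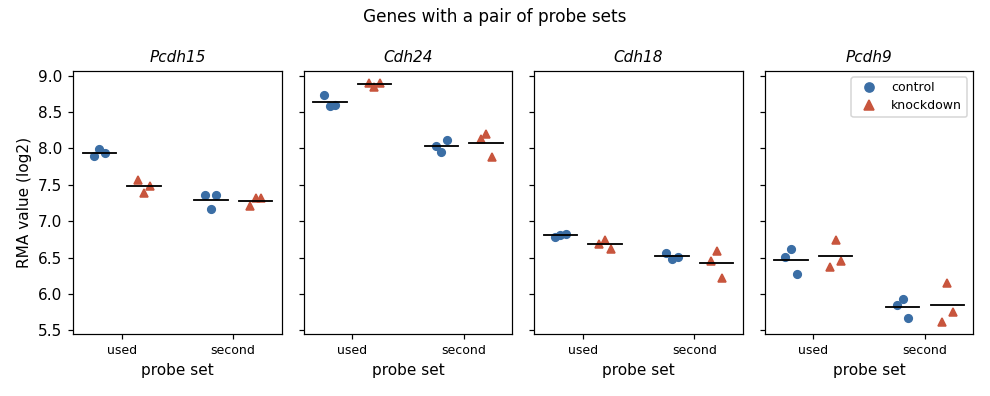
Log2 values (vertical axis) of the 4 members with a pair of probe sets, each probe set on the horizontal axis with the 3 control arrays (circles), the 3 knockdown arrays (triangles) and group means (bars). For Pcdh15, Cdh24 and Cdh18 the probe set used separates the groups and the second one does not.

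The promoter windows of the genes that changed are shown because Pax6 binds DNA and Zeb1, described below, is a known repressor of cadherin genes. Each is the RefSeq window of assembly GRCm38.p6 from 250 bases before to 50 after the gene's start, printed 5′ to 3′ in the direction of transcription. The window of Pcdh15 is chr10:73821617-73821916 on the plus strand, and that of Cdh24 is chr14:54641315-54641614 on the minus strand. Capitals mark matches to TTCACGC, the core of the sequence bound by the PAX6 paired domain, or to CAGGTG, the E-box bound by ZEB and Snail factors, on either strand.
Pcdh15: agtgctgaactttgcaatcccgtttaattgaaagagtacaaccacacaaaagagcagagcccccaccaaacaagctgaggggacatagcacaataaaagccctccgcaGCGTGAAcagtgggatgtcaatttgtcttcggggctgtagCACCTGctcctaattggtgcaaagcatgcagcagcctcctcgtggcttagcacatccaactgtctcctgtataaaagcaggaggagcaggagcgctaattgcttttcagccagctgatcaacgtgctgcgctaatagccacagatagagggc
Cdh24: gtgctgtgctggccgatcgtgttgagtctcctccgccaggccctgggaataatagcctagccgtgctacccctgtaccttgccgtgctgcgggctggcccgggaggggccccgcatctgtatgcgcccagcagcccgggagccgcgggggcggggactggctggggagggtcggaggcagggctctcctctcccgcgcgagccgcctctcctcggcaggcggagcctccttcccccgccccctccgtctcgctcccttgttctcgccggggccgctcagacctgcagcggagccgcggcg

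In the Pcdh15 window the PAX6 core matched on the complementary strand at positions -142 to -136 from the start, and the E-box matched, also on the complementary strand, at -102 to -97. The matches do not overlap each other. Of all 32851 windows given, 1.26% hold the PAX6 core and 20.2% hold the E-box. Among the 25 windows given for 22 member genes, the PAX6 core was in 1, that of Pcdh15, and the E-box in 5, of the 3 genes Cdh7, Pcdh15 and Pcdh7. The Cdh24 window holds neither run of letters. The motifs were searched after the calls were known, and a match is a run of letters and not a measured binding site. G and C made up 50.7% of the Pcdh15 window and 73.3% of the Cdh24 window.

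Among the 5 type I classical cadherins 3 were tested and 0 passed. Cdh2 encodes N-cadherin, the main classical cadherin of neural tissue, and read 10.09, 10.14 and 10.19 on the control arrays against 9.95, 9.97 and 10.02 on the knockdown arrays. The groups did not overlap, and the difference was -0.16 (SE 0.060, limma adjusted p = 0.206; 95% confidence interval -0.30 to -0.02). Cdh15, the M-cadherin gene of muscle and cerebellum, read 8.22, 8.08 and 8.27 against 8.00, 7.99 and 7.92. Its groups did not overlap either, with a difference of -0.22 (SE 0.069, limma adjusted p = 0.135). Cdh4, the retinal cadherin gene, read 7.65, 7.50 and 7.61 against 7.47, 7.68 and 7.60 and overlapped between groups, with a 95% confidence interval of -0.18 to 0.17. Cdh1 and Cdh3, the E-cadherin and P-cadherin genes of epithelia, lay below the median on every array. Cdh1 differed by 0.17 and Cdh3 by -0.07, and both overlapped between groups.

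Of the 13 type II classical cadherins 2 were tested, Cdh24 and Cdh22. Cdh22, a cadherin gene first described in pituitary and brain, read 9.40, 9.52 and 9.40 on the control arrays against 9.23, 9.26 and 9.36 on the knockdown arrays. The highest knockdown array lay just below the lowest control array, and the difference was -0.16 (SE 0.067, limma adjusted p = 0.265). The other 11 lay below the median on every array. Cdh11, a cadherin of mesenchyme, differed by -0.02 and Cdh6, of kidney and brain, by -0.18, both with overlapping groups. Cdh18 and Cdh20 were lower in every knockdown array, by differences of -0.12 and -0.17, near background and untested. The second probe set of Cdh18 differed by -0.10, with overlapping groups. Cdh5, the cadherin of vascular endothelium, differed by 0.03.

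The 5 numbered cadherins outside these classes differ in structure from the classical ones, and 1 of them, Cdh17, was tested. Cdh17, the liver and intestine cadherin gene, read 8.84, 8.53 and 8.47 on the control arrays against 8.39, 7.84 and 8.33 on the knockdown arrays. Knockdown replicate 2 was the lowest value by far, and the groups did not overlap. The difference of -0.42 was close in size to that of Pcdh15, but its SE was 0.16 and it did not pass (95% confidence interval -0.79 to -0.06, limma adjusted p = 0.197). Without knockdown replicate 2 the difference was -0.25 (SE 0.11, limma adjusted p = 0.213). Cdh13, the cadherin without a cytoplasmic tail, and Cdh16, a kidney cadherin gene, were below the median on every array. Cdh13 differed by -0.09 with overlapping groups, and Cdh16 read 6.95, 6.97 and 7.00 against 6.79, 6.89 and 6.71, a difference of -0.18 with no overlap.

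The 12 non-clustered protocadherins included 4 delta-1, 5 delta-2 and 3 others, and Pcdh15 was the member of these that changed. Pcdh1, a delta-1 protocadherin, read 9.48, 9.65 and 9.55 on the control arrays against 9.43, 9.42 and 9.46 on the knockdown arrays. The groups were separated by a small gap, with a difference of -0.12 (SE 0.064, limma adjusted p = 0.350). Pcdh17, a delta-2 protocadherin of synapses and axon growth, read 8.70, 8.66 and 8.84 against 8.60, 8.55 and 8.55, a difference of -0.17 (SE 0.068, limma adjusted p = 0.228). Pcdh12, known from vascular endothelium, read 8.28, 8.29 and 8.24 against 7.96, 8.13 and 8.12. Its groups did not overlap and differed by -0.20 (SE 0.067, limma adjusted p = 0.156). The endothelial markers summed to between 537 and 576 in the control arrays and between 574 and 651 in the knockdown arrays, with 1 of the 4 tested. Their part in the Pcdh12 values was not tested.

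All 4 tested non-clustered protocadherins were lower in every knockdown array, a pattern seen in 11.7% of all tested genes, and Pcdh15 passed the test. Pcdh15 entered the test through the controls, as given above. Over all 12, tested or not, the median difference was -0.01, with 7 below and 5 above 0. The 8 untested ones lay below the median on every array. Their differences were small, from -0.04 for Pcdh10 to 0.12 for Pcdh18, and Pcdh18 was the sole one of them whose groups did not overlap. The activity-regulated gene Pcdh8 differed by 0.08, Pcdh9 by 0.05, Pcdh20 by 0.02 and Pcdh19, an epilepsy gene, by -0.02. For Pcdh7 the 95% confidence interval, with all genes fitted, ran from -0.16 to 0.15. The second probe set of Pcdh9 differed by 0.03.

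The replicate numbers in the labels bear on these calls. Arrays with the same number deviated from their group means together, so the block was fitted as an alternative. With it 5 of the 14 tested members passed, against 17.9% of all tested genes. Pcdh15 and Cdh24 were joined by Cdh17 (limma adjusted p = 0.0397), Cdh15 (0.0752) and Pcdh12 (0.0842), each lower in the knockdown. Cdh2 missed the threshold at 0.103, and 0 of the 4 beta protocadherins passed.

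The 22 beta protocadherin genes lie side by side, each as a single exon with a promoter of its own. They are alike in sequence, so that neighbouring probe sets may share signal, and values of single beta genes are uncertain. Of the 22, 4 were tested and 0 passed. Pcdhb4 read 8.50, 8.31 and 8.50 on the control arrays against 8.74, 8.18 and 8.38 on the knockdown arrays, Pcdhb15 read 8.39, 8.32 and 8.41 against 8.52, 8.18 and 8.35, and Pcdhb6 read 7.67, 7.54 and 7.58 against 7.89, 7.45 and 7.49. In each of these genes knockdown replicate 1 was the highest of the 6 arrays and knockdown replicate 2 the lowest. Their differences were -0.01 for Pcdhb4, -0.02 for Pcdhb15 and 0.01 for Pcdhb6, and Pcdhb11 differed by 0.03. Their 95% confidence intervals were wide, that of Pcdhb4 running from -0.32 to 0.31 and that of Pcdhb15 from -0.23 to 0.19.

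The beta genes varied together between knockdown cultures. Knockdown replicate 1 was the highest of its group for 15 of the 22 genes, with a median deviation from the group mean of 0.21, and knockdown replicate 2 was the lowest for 17 of the 22, with a median deviation of -0.20. The median SD of the beta genes was 0.24 among the knockdown arrays and 0.10 among the control arrays. For the other 35 members it was 0.084 and 0.075, and for all 19938 genes 0.11 and 0.085. Array-wide, the median deviations of these knockdown arrays were 0.02 and -0.02. Over all 19938 genes, knockdown replicate 1 was the highest of its group for 8330 and knockdown replicate 2 the lowest for 8887. The control arrays of the same numbers leaned the same way, with median deviations of the beta genes of 0.03 and -0.06. Whether shared probe sequence, culture or array handling gave this pattern was not tested.

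**Figure D4:**
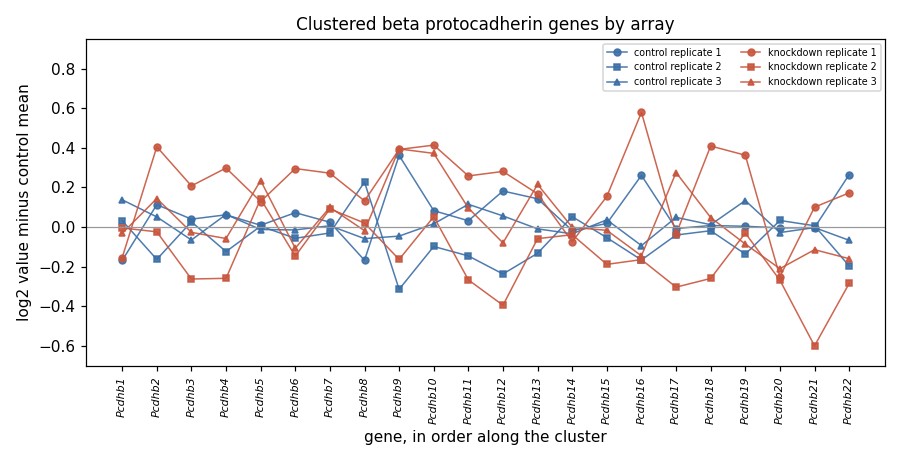
Log2 value of each array minus the control mean (vertical axis) for the 22 beta protocadherin genes in order along the cluster (horizontal axis), with control arrays in blue and knockdown arrays in red and the replicate number as the marker. Knockdown replicate 1 lies highest of its group for 15 of the 22 genes and knockdown replicate 2 lowest for 17. Over all 19938 genes these counts were 8330 and 8887.

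Over the 22 beta genes the median difference was 0.02, with 12 above and 10 below 0. Pcdhb20, below the median on every array, read 7.04, 7.08 and 7.02 on the control arrays against 6.80, 6.78 and 6.84 on the knockdown arrays. It differed by -0.24 and did not pass when all genes were tested (SE 0.062, limma adjusted p = 0.163). Pcdhb5 and Pcdhb7 were higher in every knockdown array, with differences of 0.17 and 0.15, and Pcdhb10 had the highest difference of the cluster, 0.28, with overlapping groups. The remaining 19 genes, Pcdhb10 among them, overlapped between groups. Thus 1 of the 22 lay wholly lower in the knockdown arrays and 2 wholly higher, against 7.91% and 9.23% of all 19938 genes. These counts do not set the cluster apart from other genes.

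The alpha cluster was represented by a single probe set that named 14 alpha genes, which share the exons that encode their common tail, and no probe set naming a gamma gene was among the annotated ones used here. The alpha probe set, which is not among the 57, read 8.14, 8.22 and 8.17 on the control arrays against 8.10, 7.99 and 7.96 on the knockdown arrays. The groups did not overlap, and the difference was -0.16 (SE 0.062, limma adjusted p = 0.208; 95% confidence interval -0.31 to -0.02). With the replicate block its adjusted p was 0.142. A further 3 probe sets name Cdh11 together with genes outside the family and were not used.

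The genes that cadherins work with were counted in 8 lists, of which 104 genes were measured and 81 tested. At 10% FDR 4 of the 81 passed by limma, 2 higher and 2 lower, against the 6.67% of all tested genes given above. The catenins and junction linkers, which tie the cadherin tail to actin, had 14 tested members and 0 past the threshold. Their lowest p-values were those of Magi1, a junction scaffold, with a difference of 0.19 (SE 0.063), and Vcl, vinculin, with -0.16 (SE 0.066). Ctnnb1, the beta-catenin gene, differed by 0.03 and Ctnnd1, the p120-catenin gene, by -0.04. The nectins and afadin, which found junctions beside cadherins, had 5 tested and 0 passed, with -0.24 for Nectin1 and -0.17 for Nectin2. The atypical cadherins had 9 tested and 0 passed, with -0.21 for Clstn3, a calsyntenin of synapses (limma adjusted p = 0.114), and -0.28 for Dchs1, a large cadherin of planar polarity. Of 7 measured desmosomal cadherins 0 were tested. With the replicate block, Magi1 (limma adjusted p = 0.0857), Nectin1 (0.0358), Clstn3 (0.0679) and Dchs1 (0.0266) passed, while Vcl and Nectin2 did not.

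The members of these lists that changed were a protease, a subunit of a protease complex, an actin regulator and a repressor. Adam15, a metalloprotease that can shed cadherin ectodomains, read 11.28, 11.41 and 11.33 on the control arrays against 10.95, 10.99 and 10.89 on the knockdown arrays. It fell by 0.40 (SE 0.063, limma adjusted p = 0.0241). Ncstn, the nicastrin subunit of gamma-secretase, which cleaves the remaining stub, read 11.72, 11.77 and 11.74 against 11.54, 11.57 and 11.46 and fell by 0.22 (SE 0.059, limma adjusted p = 0.0956). The other 12 tested of these 14 did not pass, and Adam10, a main sheddase of N-cadherin, had a 95% confidence interval of -0.16 to 0.16. With the replicate block Adam17, at a difference of -0.27 (limma adjusted p = 0.0591), and Pcsk6, at -0.22 (0.0496), passed as well.

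Cyfip2 belongs to the WAVE complex, which builds branched actin and binds the tails of several delta protocadherins. It read 10.33, 10.53 and 10.57 on the control arrays against 10.82, 10.71 and 10.76 on the knockdown arrays, a rise of 0.29 (SE 0.078, limma adjusted p = 0.0960), and was the member of 11 tested in its list that passed. With the replicate block Wasf1 of this list passed as well, at a difference of 0.21 (limma adjusted p = 0.0504). Zeb1, a zinc finger repressor of E-cadherin, read 10.44, 10.43 and 10.41 against 10.82, 10.73 and 10.75. It rose by 0.34 (SE 0.057, limma adjusted p = 0.0289), and the other 7 tested repressors, Snai1, Snai2 and Zeb2 among them, did not pass. Cdh1, the gene that Zeb1 is best known to repress, lay below the array median in both groups, as given above. Of 20 tested genes for promoter choice in the clustered protocadherins, such as Ctcf and the cohesin subunits, 0 passed, with 0.23 for Tet1 (SE 0.094) and -0.14 for Dnmt3b (SE 0.072). With the replicate block Tet1 passed (limma adjusted p = 0.0447) and Dnmt3b did not. Over all 8 lists 12 of the 81 passed with the block, against the 17.9% of all tested genes given above, and the 4 named as changed were among them.

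**Figure D5:**
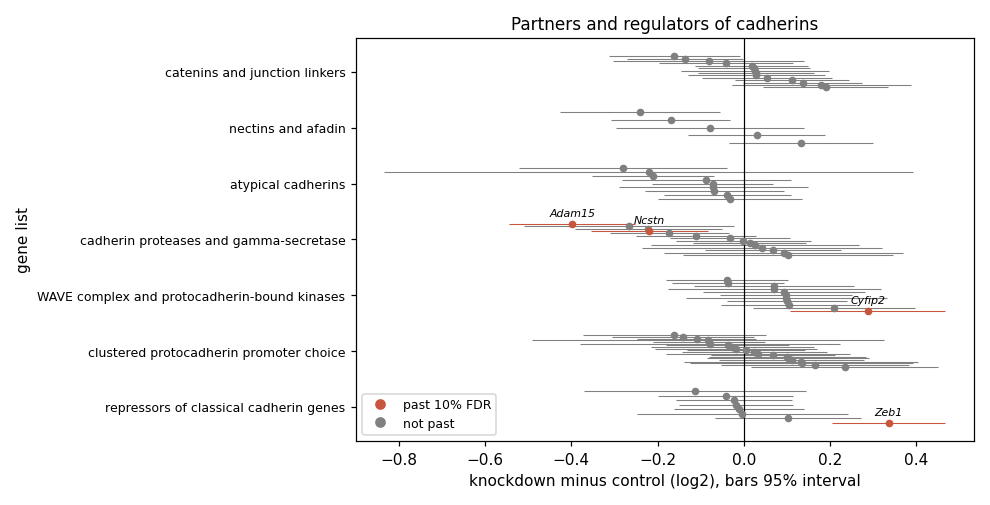
Difference in log2 value, knockdown minus control (horizontal axis), with 95% confidence intervals as bars, for the 81 tested genes of the lists of cadherin partners and regulators (vertical axis, 1 row of points per list). Adam15 and Ncstn fell and Cyfip2 and Zeb1 rose at 10% FDR, and the other points did not pass. The desmosomal cadherins have no point because 0 of them were tested.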

How the data were processed

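Expression was measured on Affymetrix Mouse Gene 1.0 ST arrays of 6 samples, 3 per group, each from 200 ng of RNA. The authors deposited log2 values, which per the study's methods were background-corrected with RMA and quantile-normalized. Quantile normalization, which the methods list before the summary step, forces a common distribution on the arrays at that step. The deposited summaries still differed, with array medians from 7.49 to 7.59. The processing hides changes in total RNA per cell and compresses differences near background. For the annotation build, tool versions and low-value filter of the study, details are not given in the sources used here. The table holds 35556 probe sets and 0 missing values, of which 21789 name 1 gene, 1621 several and 12146 none in the platform annotation. All 57 symbols were in RefSeq. The number of arrays limits the precision.

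Only probe sets with 1 symbol were used, with the highest mean over the 6 arrays where a gene had several. Genes that exceeded the array-wide median on 3 or more arrays were tested with limma 3.58.1 in R 4.3.3 (lmFit and eBayes, two-sided, Benjamini-Hochberg over 11424 genes) at the study's threshold of 10% FDR. The members, classes and lists were chosen with earlier results of these data known, so they give no independent support. Named genes were those past the threshold, in each class the 3 with the highest mean and any with an unadjusted p under 0.05, Pax6, and from each partner list up to 3 past the threshold or the 2 with the lowest p. Other members and partners were named after their values were seen. Listed genes without a probe set of their own were not analysed here. Promoter windows were copied from the RefSeq table and searched on both strands. The procedure was tested on simulated data with independent noise on each array, which lacked the deviations shared by arrays of the same replicate number.

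Control and knockdown arrays share replicate numbers, whose meaning the labels leave unstated. Over the tested genes, residuals about the group means correlated at 0.57, 0.32 and 0.23 within replicates 1, 2 and 3, and pairing by number was therefore accepted. Control replicate 3 with knockdown replicate 2 also reached 0.18. Alternatives covered the block, the filter, the normalization, the choice of probe set, the variance model, array weights and leaving out each array.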

Additional observations from a re-analysis of the deposited data

How the results depend on the processing

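The count of 2 members past 10% FDR depended on the settings. It was 5 with the replicate block, 8 with array weights, 3 after a second quantile normalization and 2 with centred arrays or with probe sets of several genes added. It was 1 without a low-value filter, with a 25th percentile filter, with a variance filter, with the mean of probe sets and with an intensity trend, and Pcdh15 was that member each time. It was 0 with a 75th percentile filter, which left 1 member, Cdh2, to test. Leaving out an array gave 0 to 2, with 0 without control replicate 2 or knockdown replicate 3. The 4 of 81 tested partner genes past the threshold became 12 of 81 with the block and 27 of 81 with array weights. With the 75th percentile filter 8 of 54 passed. The count was 2 with the 25th percentile filter, without a filter or with centred arrays, and 0 with the variance filter. Leaving out an array gave 0 to 8, with 0 without control replicate 2 or 3 or knockdown replicate 3, and 8 without knockdown replicate 2. The 762 genes changed over the whole array ranged from 51, without control replicate 2, to 4239, with array weights, each of 11424 tested. They became 2042 with the block and 1383 after a second quantile normalization. With the 75th percentile filter 1046 of 5982 passed, with the 25th 389 of 16402, without a filter 245 of 19938 and with the variance filter 127 of 9969. The member and partner counts are to be read beside these array-wide counts.

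Pax6 remained lower in all 16 alternatives that tested it, at -0.42 to -0.32 when an array was left out. It missed the threshold with the variance filter (-0.38, limma adjusted p = 0.231). Pcdh15 was lower in all 16 of its alternatives, from -0.51 to -0.24, and Cdh24 higher in all 16, from 0.14 to 0.29. No member that passed in any setting changed sign, whereas Cdh4 and the 4 tested beta genes, which never passed, did so in 2 to 6 settings each. The 75th percentile filter did not test Pax6. The causes of these dependences were not tested. The number of arrays, 3 a group, limits the precision.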
